A study of Mus musculus with 4 samples.

Results

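The 35 genes described here carry out or control the presentation of peptides on major histocompatibility complex (MHC) molecules in mouse lungs bearing small cell lung cancer (SCLC). They were taken by symbol from the 31053 genes of the deposited feature table, 24 for the class I route and 11 for the class II route, and all 35 were found. The rule used gene names and no measured value. Their transcripts were counted in single cells of 4 groups of mice, 1 library per group, all of which had been given SCLC cells by injection into the lung. The anti-PD-1 group received antibody clone 29F.1A12 at 200 µg per mouse 3 times a week, and PD-1 is an inhibitory receptor on T cells. The YKL-5-124 group received 10 mg/kg of this inhibitor of the kinase CDK7 on weekdays, and the combination group received both agents. Control mice were given vehicle together with isotype IgG. Lungs were perfused, digested whole and sorted for live cells with DAPI before droplet capture. The number of animals per library, the strain of the mice and the identity of the injected line are not stated in the sources used here, and the MHC chain genes vary strongly between strains.

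In the class I route, the proteasome cuts cytosolic proteins, the TAP transporter carries the peptides into the endoplasmic reticulum, and a loading complex places them on a heavy chain paired with B2m for display to CD8+ T cells. In the class II route, paired alpha and beta chains travel with the invariant chain Cd74 to endosomes, where proteases and H2-DM exchange it for peptide for display to CD4+ T cells. Nearly all cells can use the first route and raise it under interferon gamma, while the second is largely kept to B cells, dendritic cells and macrophages. SCLC is known for low class I expression.

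Of the 35 genes, 22 lie on chromosome 17 between positions 33915899 and 37483552, a span of 3.57 Mb in the GENCODE M21 annotation of GRCm38. Many share promoter elements known as the X2 box, with the core TGACG, and the Y box, a reversed CCAAT element that reads ATTGG. The transactivators Nlrc5 (class I) and Ciita (class II), both among the 35, are known to act through complexes bound there. The 150 bases before the start site are printed for the chain genes whose values recur below, from RefSeq on GRCm38.p6, with TGACG and ATTGG on the gene's own strand in capitals. They come from chr17:34000348-34000497 (minus strand), chr17:35262944-35263093 (plus), chr2:122147537-122147686 (plus), chr17:34287824-34287973 (minus) and chr17:34305717-34305866 (plus).
H2-K1: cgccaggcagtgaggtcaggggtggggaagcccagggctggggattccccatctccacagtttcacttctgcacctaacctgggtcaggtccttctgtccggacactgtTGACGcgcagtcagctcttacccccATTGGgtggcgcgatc
H2-D1: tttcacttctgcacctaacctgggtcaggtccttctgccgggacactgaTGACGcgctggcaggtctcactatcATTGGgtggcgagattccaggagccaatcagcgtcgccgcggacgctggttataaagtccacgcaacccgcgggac
B2m: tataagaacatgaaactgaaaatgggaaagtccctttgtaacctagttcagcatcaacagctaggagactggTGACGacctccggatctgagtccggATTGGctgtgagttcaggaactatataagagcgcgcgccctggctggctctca
H2-Aa: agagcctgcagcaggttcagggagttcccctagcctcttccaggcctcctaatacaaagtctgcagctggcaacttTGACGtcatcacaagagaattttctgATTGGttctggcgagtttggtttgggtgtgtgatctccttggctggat
H2-Eb1: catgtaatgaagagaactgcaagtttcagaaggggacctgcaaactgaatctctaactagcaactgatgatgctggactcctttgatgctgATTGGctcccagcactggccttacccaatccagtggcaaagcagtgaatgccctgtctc
In the classical heavy chain genes H2-K1 and H2-D1 and in B2m, the starts of the capitalised motifs lie 25 bases apart, and in H2-Aa 26 bases. The H2-Eb1 window holds ATTGG without TGACG.

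Both strands of the 250 bases before each start were then searched for TGACG and ATTGG, which do not overlap in the pairs counted, with starts 24 to 26 bases apart on the same strand. RefSeq promoters of 29 of the 35 genes were used, and those of Cd74, Ciita, H2-Ab1, Nlrc5, Tap2 and Tapbpl were not. Promoters on chromosome 18, where Cd74 lies, were left out for the 35 genes but kept among all promoters. The pair was present in 5 of 21 class I promoters (23.8%), those of H2-K1, H2-D1, H2-Q7, H2-M3 and B2m, and in 1 of 8 class II promoters (12.5%), that of H2-Aa. Among all 27025 promoters, 55 held it (0.204%). TGACG alone was present in 61.9% of class I, 12.5% of class II and 19.8% of all promoters, and ATTGG alone in 76.2%, 87.5% and 37.5%. These matches describe the letters and not the binding of any factor.

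Libraries held 17329001 to 22950622 unique molecular identifiers (UMIs), and 14411 barcodes passed the filters (a minimum of 500 UMIs and 300 genes, no more than 10% of UMIs mitochondrial), with 2736, 4152 and 4042 in the anti-PD-1, YKL-5-124 and combination libraries and 3481 in control. Barcodes were gated to lineages by listed marker genes, none of them among the 35, and the 20 SCLC markers summed to 7226 to 8174 CPM in the tumour gate and 59.7 to 76.9 CPM in the T cell gate. The same markers set the gates, so this contrast was built in and does not measure their purity. Levels are in CPM, UMIs of a gene scaled to the UMI total of its lineage in its library. Between pairs of libraries, 469 to 537 barcodes passed in both, where 12.9 to 22.8 would be shared by chance, and 1593 barcodes were shallower copies of a barcode in another library, with a median of 2.44% of its UMIs. Of these copies, 1312 were gated as tumour, so 37.3% of tumour barcodes but 3.77% of tumour UMIs are copies, against 0.949% of barcodes in the other gates. Tumour results are therefore also given without copies where that changes them. With 1 library per group there is no replicate error and no test of a treatment, parentheses hold 95% intervals that cover counting error only, and the words higher and lower, where counted, mean past 1.5-fold after 10 CPM are added to both levels, a rule of size only.

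Class I transcripts were lower in tumour cells than in lymphocytes in every library. The heavy chain H2-K1 measured 311, 323 and 405 CPM in the anti-PD-1, YKL-5-124 and combination libraries, against 349 CPM in control in tumour cells, and 1794 to 1889 CPM in T cells, 2294 to 2392 CPM in natural killer (NK) cells and 1210.0 to 1291 CPM in B cells. H2-D1, the other classical heavy chain, measured 1035, 1172 and 1345 CPM in the anti-PD-1, YKL-5-124 and combination libraries, against 1175 CPM in control in tumour cells, and 3767 to 4099.5 CPM in T cells. The light chain B2m measured 858, 893 and 1044 CPM in the anti-PD-1, YKL-5-124 and combination libraries, against 982 CPM in control in tumour cells, and 4450.4 to 4668 CPM in T cells. The combination library was the highest of the 4 and the anti-PD-1 library the lowest for all 3 chains in tumour cells, and no tumour value overlapped those of T cells. Tumour levels lay 4.58 to 6.07-fold below T cells for H2-K1, 2.99 to 3.64-fold for H2-D1 and 4.47 to 5.39-fold for B2m over the 4 libraries. Summed over the 4 libraries, 51 airway and alveolar epithelial cells held 238 CPM of H2-K1, 485 of H2-D1 and 451 of B2m, below tumour cells. The 56 stromal cells held 335, 1240 and 2014 CPM in the same order, within the tumour range for both heavy chains. Low levels were thus not particular to tumour cells, although endothelial cells, given below, held more H2-D1.

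**Figure D1:**
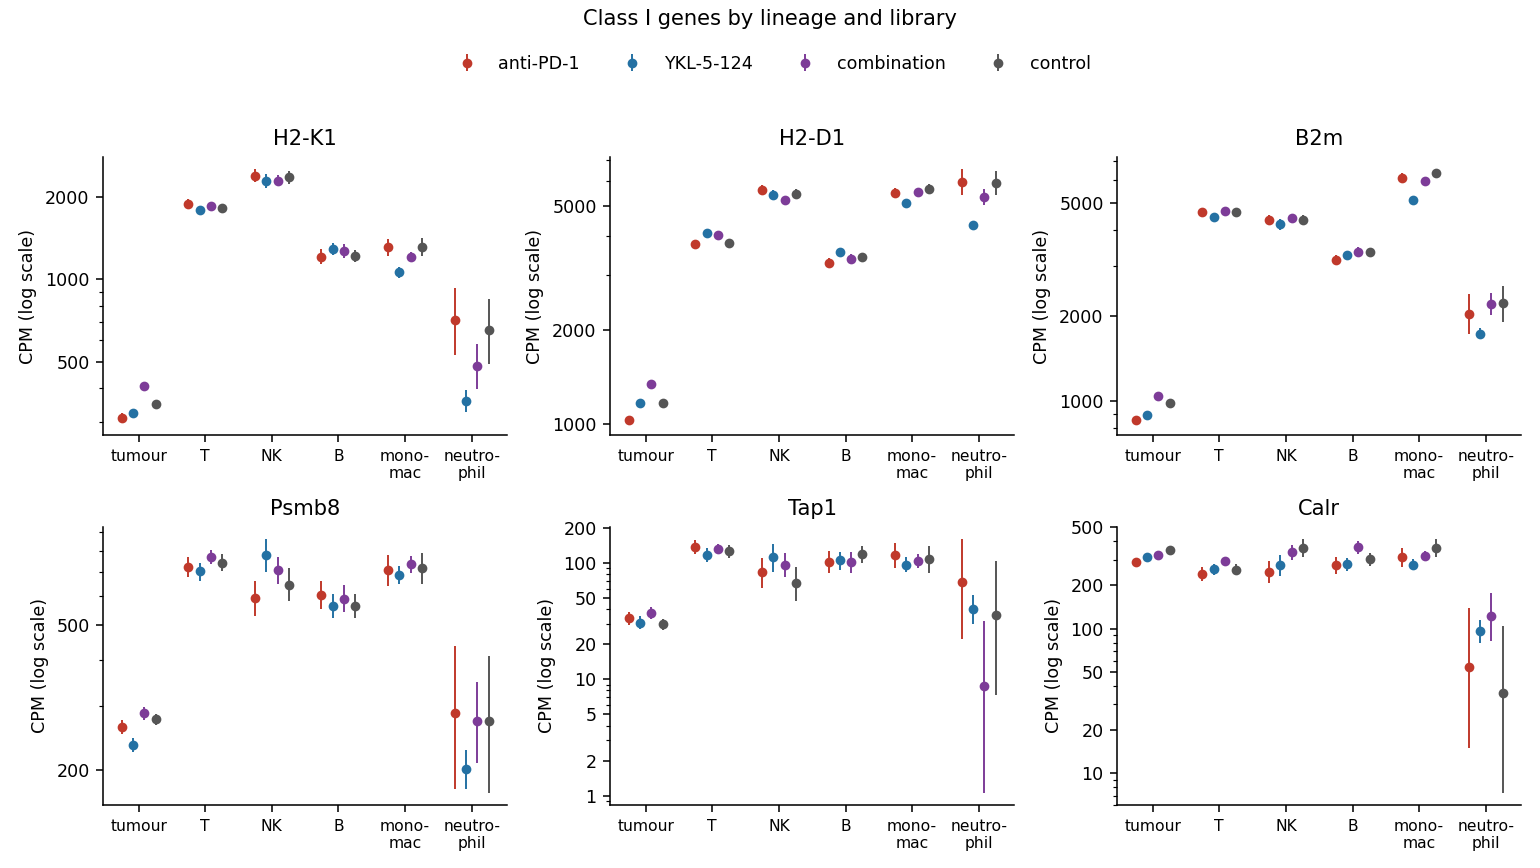
CPM (log axis) of 6 class I genes in 6 gated lineages, 1 point per library with its 95% counting interval. In tumour cells H2-K1, H2-D1, B2m, Psmb8 and Tap1 lie below T, NK and B cells in all 4 libraries, while Calr overlaps with theirs.

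Nonclassical heavy chains were lower in tumour than in T cells too, by amounts that varied between genes. H2-Q7, a Qa-2 heavy chain, measured 11.6 to 19.3 CPM in tumour cells and 399.8 to 518 CPM in T cells, 25.1 to 36.1-fold lower, and the related H2-Q6 lay 23.6 to 53.8-fold lower. H2-T23, which encodes Qa-1, a ligand of inhibitory and activating NK receptors, lay 6.26 to 8.22-fold lower, H2-T22 6.56 to 8.47-fold, H2-Q4 3.10 to 4.94-fold and H2-M3, which presents formylated peptides, 3.54 to 4.73-fold lower. H2-M2, another nonclassical heavy chain gene, had at most 7 UMIs per library in either lineage. Counting could split reads among genes that share sequence, so some of these levels are uncertain. Of the 60-base words in the last 400 bases of H2-T22, 56.6% recur in other genes, and H2-T10 shares the most. The share was 31.7% for H2-Q6, 31.4% for H2-Q4 and 28.7% for H2-T23. The genes sharing most with these were Efr3a, Gm43321 and Rab33b in the same order. For H2-Q7, H2-K1 and B2m this share was 0.

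The genes that supply and load peptide were lower in tumour cells as well. Tap1, a subunit of the peptide transporter, measured 33.4, 30.7 and 36.8 CPM in the anti-PD-1, YKL-5-124 and combination libraries, against 29.8 CPM in control in tumour cells, and 118 to 137 CPM in T cells. Its partner Tap2 lay 4.30 to 6.23-fold below T cells, Tapbp (tapasin), which bridges transporter and heavy chain, 6.401 to 7.05-fold, and Tapbpl, a tapasin-related peptide editor, 1.88 to 2.39-fold. The trimming peptidase Erap1 lay 1.98 to 3.104-fold lower. Of the interferon-inducible proteasome subunits, Psmb8 lay 2.69 to 3.01-fold, Psmb9 2.12 to 2.74-fold and Psmb10 4.03 to 4.34-fold lower, and the subunits of the proteasome activator, Psme1 and Psme2, 1.65 to 1.83-fold and 2.11 to 2.47-fold. Of the last 400 bases of Psme2, 65.1% of 60-base words recur in Psme2b. Nlrc5, the class I transactivator, was scarce, at 3.77 to 6.75 CPM in tumour cells and 15.3 to 25.3 CPM in T cells.

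General chaperones of the endoplasmic reticulum did not share the gap. Canx (calnexin), which holds new heavy chains, measured 304, 313 and 280.3 CPM in the anti-PD-1, YKL-5-124 and combination libraries, against 318 CPM in control in tumour cells, and 112 to 160.3 CPM in T cells, higher in tumour cells in 4 of 4 libraries. Calr (calreticulin) stood within 1.5-fold of T cells, at 291 to 351 CPM in tumour cells and 238 to 293 CPM in T cells, as did Pdia3, a disulfide isomerase of the loading complex, at 328 to 391 and 305 to 421 CPM. Counting class I genes with at least 10 CPM over both lineages, 20 of 23 were lower in tumour than in T cells in each of the 4 libraries, where 15.4%, 15.2%, 15.1% and 15.2% of all genes measured were lower in the anti-PD-1, YKL-5-124, combination and control libraries. The median log2 ratio of these class I genes was -1.76, -1.65, -1.48 and -1.69 in the same order, beside 0.60, 0.58, 0.57 and 0.63 over all genes. Tumour cells were deeper than T cells, and scaling by the median ratio of genes instead of total UMIs gave -2.08, -1.97, -1.80 and -2.07.

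**Figure D2:**
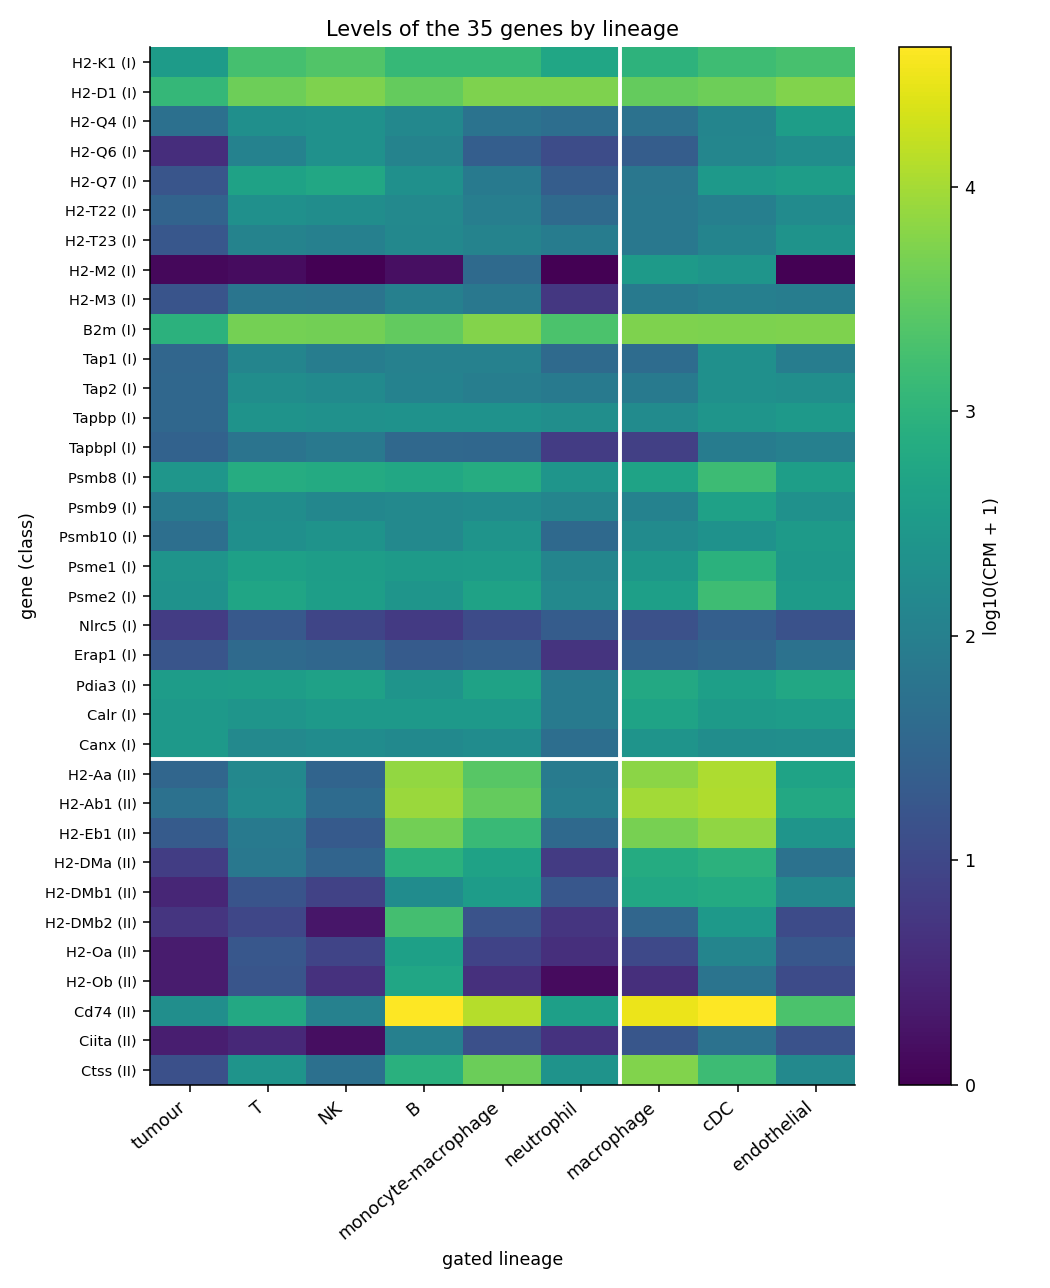
Mean level over the 4 libraries, as log10(CPM + 1), of the 24 class I and 11 class II genes in 6 lineages, and the level summed over libraries in macrophages, conventional dendritic cells (cDC) and endothelial cells right of the line. The tumour column is darkest among the first 6 for H2-K1, H2-D1, B2m and Tapbp. The class II chains and Cd74 are bright in B cells, monocytes and macrophages, and dendritic cells.

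Among the 6 lineages compared between libraries, H2-K1 was highest in NK cells. H2-D1 lay at 5116 to 5664 CPM in monocytes and macrophages, 5215 to 5627 CPM in NK cells and 4348 to 5948 CPM in neutrophils, ranges that overlap. H2-K1 in neutrophils was 358 to 709 CPM, so the balance of both heavy chains differed between lineages. The UMI quotient of H2-K1 to H2-D1, read between lineages and not as relative amounts of the proteins, was 0.294 (0.288 to 0.2995) in tumour cells over the 4 libraries together, against 0.467 (0.458 to 0.476) in T cells, 0.432 (0.418 to 0.446) in NK cells and 0.364 (0.353 to 0.376) in B cells. It was 0.218 (0.212 to 0.225) in monocytes and macrophages and 0.0875 (0.0808 to 0.0947) in neutrophils. The order T, NK, B, tumour, monocyte or macrophage and neutrophil was the same in each of the 4 libraries, and the intervals of T and NK cells overlapped in 3 of them. In barcodes with 10 to 100 UMIs, which hold free RNA, H2-K1 measured 1137 to 1389 CPM and H2-D1 1983 to 2440.4 CPM, above the tumour levels. With that profile subtracted at 5% of each lineage's UMIs, the class I median of tumour over T cells was -1.86, -1.76 and -1.60 in the anti-PD-1, YKL-5-124 and combination libraries and -1.74 in control.

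Interferon-inducible subunits replace constitutive ones in the immunoproteasome, and the UMI quotient of each pair was lower in tumour cells than in the other 5 lineages compared between libraries. Psmb8 to Psmb5 was 0.777 (0.756 to 0.799) in tumour cells over the 4 libraries together, against 3.68 (3.48 to 3.89) in T cells, 3.49 (3.198 to 3.802) in B cells and 2.72 (2.54 to 2.902) in monocytes and macrophages. Psmb9 to Psmb6 was 0.0947 (0.0911 to 0.0985) in tumour cells and 0.733 (0.685 to 0.784) in T cells, and Psmb10 to Psmb7 0.120 (0.114 to 0.126) and 1.52 (1.401 to 1.64). Single tumour libraries ran from 0.723 to 0.833, 0.0792 to 0.112 and 0.0986 to 0.129 for the 3 pairs, and each was lowest with YKL-5-124. In 165 conventional dendritic cells the Psmb8 to Psmb5 quotient was 7.61 (6.53 to 8.903). Epithelial cells, summed over libraries, held 9 UMIs of Psmb8 to 26 of Psmb5, 2 of Psmb9 to 52 of Psmb6 and 9 of Psmb10 to 21 of Psmb7. Stromal cells held 23 to 37, 4 to 66 and 35 to 18 UMIs. On these few UMIs the Psmb8 and Psmb9 pairs lay lower than in tumour cells in both, and the Psmb10 pair higher.

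**Figure D3:**
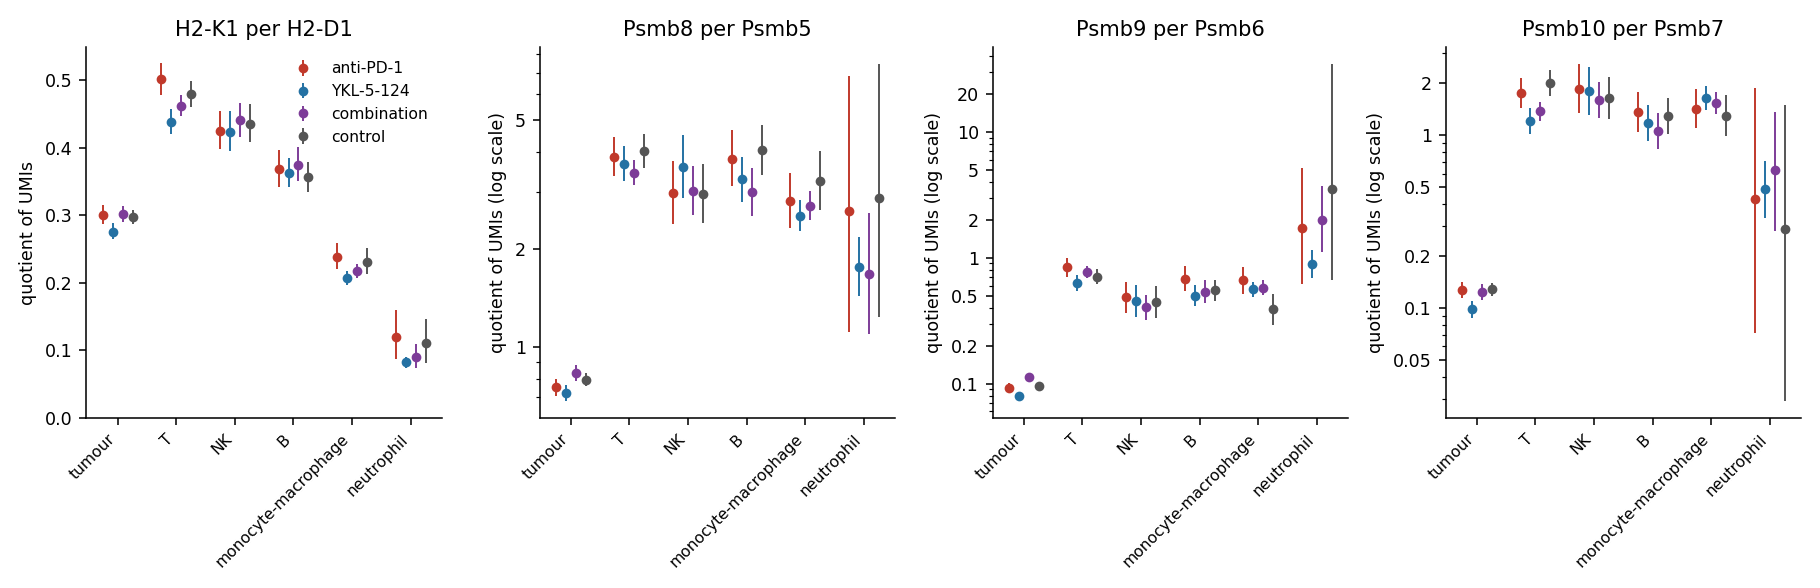
Quotients of UMIs, H2-K1 to H2-D1 (linear axis from 0) and 3 immunoproteasome subunits to their constitutive partners (log axes), by lineage, 1 point per library with its 95% counting interval. Tumour cells lie below T, NK and B cells in all 4 panels, and neutrophils are lowest for H2-K1 to H2-D1.

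Class I transcripts were spread over most tumour cells. After thinning each cell to 1000 UMIs, 38.2% (34.4 to 42.2), 42.4% (38.7 to 46.2) and 53.7% (49.6 to 57.7) of tumour cells held at least 3 UMIs of H2-K1, H2-D1 and B2m together in the anti-PD-1, YKL-5-124 and combination libraries, against 42.6% (39.1 to 46.2) in control, and 98.8% to 99.8% of T cells did. Without copies the 4 tumour shares were 37.3%, 37.6% and 50.8%, against 40.1% in control. Cells under 1000 UMIs, left out, were 245, 190 and 201 tumour cells in the treated libraries and 199 in control. The combination library had the highest share both ways. At least 1 such UMI was found in 83.7% to 90.5% of tumour cells (92.3% to 94.9% before thinning) and in 99.9% to 100% of T cells. Among 375, 478 and 391 tumour cells deep enough for 5000 UMIs, without copies, in the anti-PD-1, YKL-5-124 and combination libraries and 550 in control, 0, 1 and 0 against 2 cells had none of the 3 chains. Their mean was 11.2, 11.4 and 14.1 UMIs against 12.5 in control. The variance was 4.02, 3.29 and 4.44 times the mean, and 5.65 times in control, where counting alone gives a value of 1. Across these cells the summed chains had Spearman correlations of 0.20, 0.16 and 0.26 with the summed processing genes in the treated libraries and 0.37 in control, given as a description, since cells of 1 library share its depth and free RNA. The control library thus had the widest spread between tumour cells. Tumour barcodes with at least 5 UMIs of H2-Aa, H2-Ab1 and H2-Eb1 were not left out here. They numbered 7, 10 and 9 in the treated libraries and 20, with a median depth of 21208 UMIs, in control. Their part in the spread and the correlations was not tested.

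Among the lineages compared between libraries, the class II chains and Cd74 separated B cells and monocytes or macrophages from the others. H2-Oa and H2-Ob did so for B cells only. Cells too few for this comparison held class II as well. Epithelial cells held 252 CPM of H2-Aa and 1499 CPM of Cd74 over all libraries, and endothelial cells 1821 and 2115 CPM of Cd74 in the combination and control. The alpha chain H2-Aa measured 22.7 to 38.7 CPM in tumour cells, 7301 to 7677 CPM in B cells and 1612 to 3871 CPM in monocytes and macrophages, and the invariant chain Cd74 164 to 207, 40622 to 42656 and 8994 to 18904 CPM in the same order. NK cells, which are not expected to make class II, held 26.8 to 34.96 CPM of H2-Aa and 93.4 to 114 CPM of Cd74, while free RNA held 835 to 1001 and 4290.0 to 4740.0 CPM. The transactivator Ciita measured 0.590 to 2.47 CPM in tumour cells, 0 to 1.84 CPM in NK cells and 90.6 to 113 CPM in B cells. H2-Aa in tumour cells was thus at the level of the NK background.

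Within the class II route, B cells and monocytes or macrophages used different accessory genes. H2-DMb2, a beta chain of the H2-DM exchanger, measured 1688 to 1866 CPM in B cells and 9.001 to 20.1 CPM in monocytes and macrophages, whereas its neighbour H2-DMb1 measured 142 to 197 and 269 to 466 CPM. H2-Oa and H2-Ob, which form the H2-DM inhibitor H2-O, measured 349 to 509.9 and 484 to 579.7 CPM in B cells, and 5.501 to 11.5 and 2.65 to 3.67 CPM in monocytes and macrophages. H2-DMa, the alpha chain of the exchanger, was 842 to 924 CPM in B cells and 393 to 552 CPM in monocytes and macrophages. Ctss (cathepsin S), the protease that trims the invariant chain, had the opposite order, 843 to 871 and 3779 to 4043 CPM. Each of these ranges was apart from the other in all 4 libraries.

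Dendritic cells, macrophages and endothelial cells were too few for comparison across all 4 libraries, and their levels are given from summed counts. The 165 conventional dendritic cells held 11138 CPM of H2-Aa, 41291 CPM of Cd74, 1494 CPM of Psmb8, 1558 CPM of Psme2 and 316 CPM of H2-DMb2. The 88 macrophages held 6621 CPM of H2-Aa and 323 CPM of H2-M2, a class I gene also found in the dendritic cells at 259 CPM. Classical and nonclassical monocytes had 0 UMIs of H2-M2, which allows a level of up to 2.14 and 1.88 CPM over the 4 libraries. The 163 endothelial cells held 5564 CPM of H2-D1, 371 CPM of H2-Q4 and 487 CPM of H2-Aa. H2-M2 was thus found mainly in macrophages and dendritic cells.

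The comparisons of treated with control libraries ask whether antigen presentation changed in the tumour or its surroundings under either agent or both. In tumour cells no class I gene passed 1.5-fold in any library: 0 of 21 measured were higher or lower with anti-PD-1 (with 0.481% of all genes measured higher and 0.0112% lower), 0 of 21 with YKL-5-124 (0.269% of all genes measured higher and 0.123% lower) and 0 of 21 with the combination (1.29% of all genes measured higher and 0.201% lower). H2-Q6, H2-M2 and Nlrc5 were below the level measured. The median log2 ratio was -0.07, -0.13 and -0.02, beside 0.00, 0.04 and 0.01 over all 8936 genes measured. The chains moved by small amounts, and the ratios to control of H2-K1 were 0.892 (0.848 to 0.939), 0.927 (0.883 to 0.974) and 1.16 (1.11 to 1.22). For B2m they were 0.875 (0.848 to 0.902), 0.910 (0.884 to 0.937) and 1.06 (1.03 to 1.095). Nlrc5 stood at 5.39, 3.77 and 6.75 against 6.17 CPM, Psmb9 at 76.4, 64.1 and 92.7 against 79.9 CPM, and Psmb8 at 262, 233 and 285 against 275 CPM. Of 37 wider pathway genes measured, 0 passed 1.5-fold in any of the 3. The combination library was therefore slightly above control for H2-K1, H2-D1, B2m and Psmb9, and both single agents were below control for H2-K1, B2m, Psmb8 and Psmb9.

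The class II genes measured in tumour cells were the 3 chains, Cd74 and Ctss, and 1 of 5 was past 1.5-fold in any comparison with control. H2-Eb1, a beta chain, measured 17.5, 20.4 and 12.99 CPM in the anti-PD-1, YKL-5-124 and combination libraries, against 29.2 CPM in control, a ratio of 0.445 (0.352 to 0.559) in the combination. H2-Aa measured 30.9, 35.8 and 22.7 against 38.7 CPM, H2-Ab1 51.8, 51.8 and 46.1 against 54.4 CPM and Cd74 193, 204 and 164 against 207 CPM, none past 1.5-fold. These levels and the count of 1 of 5 include copies. Without copies, Cd74 measured 228, 96.1 and 131 against 315 CPM in tumour barcodes of 5000 to 15000 UMIs. In deeper barcodes it measured 83.3, 173 and 61.8 against 127 CPM. The combination lay further below control in both than over all barcodes. At 1500 to 5000 UMIs the order was the other way, at 62.1, 85.1 and 80.6 against 42.8 CPM. H2-DMa, H2-DMb1, H2-DMb2, H2-Oa, H2-Ob and Ciita were below the level measured. A few barcodes carried much of this signal: those with at least 5 UMIs of H2-Aa, H2-Ab1 and H2-Eb1 were 7, 10 and 9 tumour barcodes in the anti-PD-1, YKL-5-124 and combination libraries, with 42.7%, 50.3% and 21.6% of chain UMIs, against 20 barcodes with 68.7% in control. Without them the 3 chains summed to 59.4, 55.95 and 66.6 CPM, against 40.4 CPM in control. Control was thus lowest without them and highest with them, copies included in both. The barcodes were chosen by these same UMIs, so a fall in each library was built in. In tumour barcodes of 1500 to 5000 UMIs the chains measured 156, 143 and 273 against 95.3 CPM with copies. Without copies they measured 44.4, 50.3 and 75.9 against 48.1 CPM there. The order with both kinds of barcode left out was not tested. The barcodes with at least 5 chain UMIs had median depths of 15414, 27102 and 23115 UMIs, against 21208 in control. The shares of tumour cells with at least 1 class II chain UMI, thinned to 1000 UMIs, were 14.7%, 11.2% and 16.2% against 9.67% in control, 35.03% to 42.3% before thinning, and 3.55%, 4.79% and 5.45% against 5.15% without copies. In NK cells, with median depths of 1606 to 1792.5 UMIs against 2403 to 6100 in tumour cells, this share was 7.66% to 9.75% (12.3% to 17.98% before thinning), so the tumour share without copies lay below that background.

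**Figure D4:**
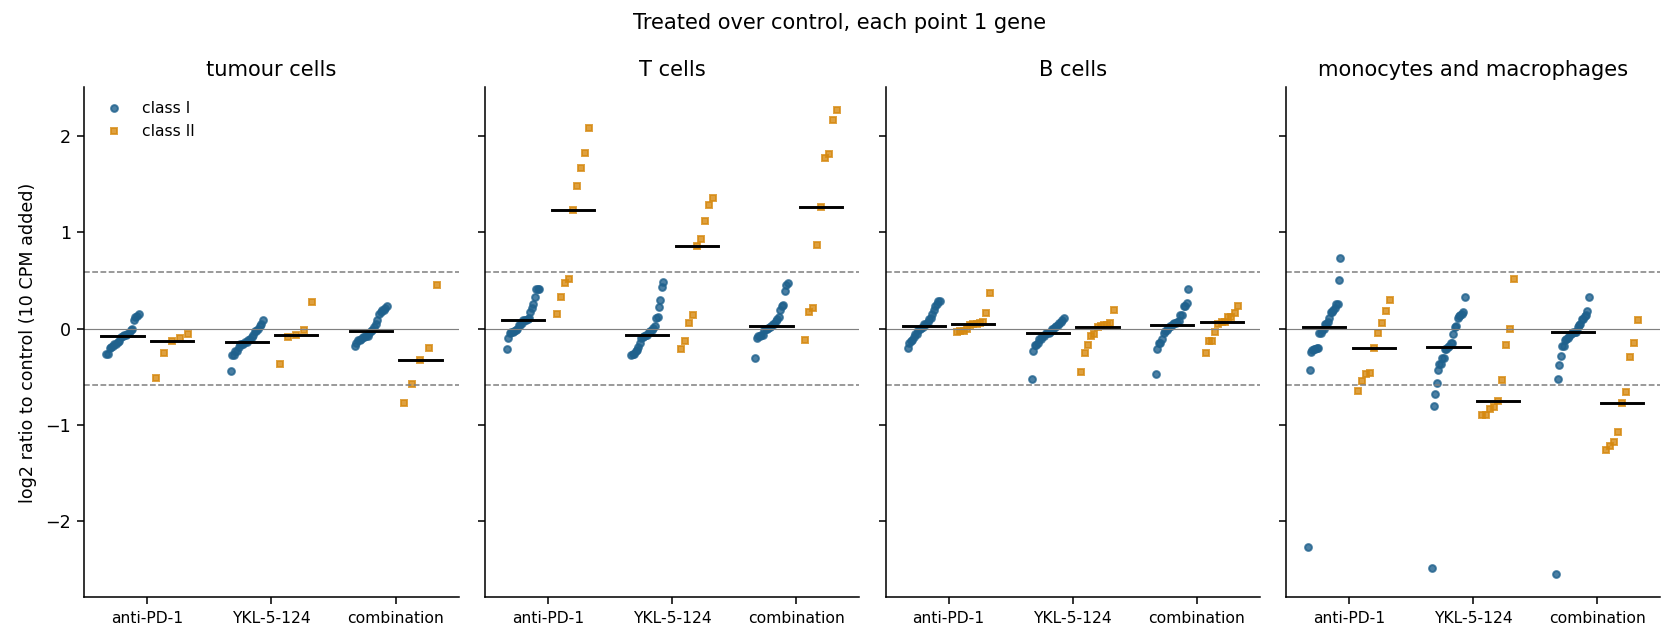
Log2 ratio of treated to control, with 10 CPM added to both levels, of each class I (circles) and class II (squares) gene measured, by lineage and treated library; bars are list medians and dashed lines mark 1.5-fold. Class I points lie around 0, the 3 class II chains and Cd74 lie above 0 in T cells and below 0 in monocytes and macrophages, and the lowest class I point there is H2-M2.

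In T cells class I stayed within 1.5-fold of control, while class II transcripts were higher in all 3 treated libraries. Of 23 class I genes measured, 0 were past 1.5-fold with anti-PD-1 (2.41% of all genes measured higher and 1.05% lower), 0 with YKL-5-124 (5.16% of all genes measured higher and 0.931% lower) and 0 with the combination (5.9% of all genes measured higher and 1.15% lower), with medians of 0.09, -0.06 and 0.03. Of 9 class II genes, 5, 5 and 6 were higher and 0 lower in the same comparisons, with medians of 1.23, 0.86 and 1.26, beside 0.03, 0.08 and 0.07 over all genes. H2-Aa measured 197, 115 and 225 CPM in the anti-PD-1, YKL-5-124 and combination libraries, against 38.9 CPM in control, and its ratios were 5.08 (3.91 to 6.67), 2.95 (2.25 to 3.92) and 5.79 (4.54 to 7.48). H2-Ab1 was 217, 126 and 240.0 against 61.2 CPM, H2-Eb1 81.7, 61.2 and 137 against 22.9 CPM, H2-DMb1 20.97, 13.99 and 21.7 against 3.195 CPM and Cd74 828, 568 and 797 against 227 CPM, and H2-DMa, at 75.9, 54.2 and 103 against 51.7 CPM, was past 1.5-fold in the combination. Ciita, below the level measured, stood at 3.61, 1.75 and 3.05 against 1.07 CPM.

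This difference lay in 6, 6 and 16 T cell barcodes of the anti-PD-1, YKL-5-124 and combination libraries, and 5 of control, with at least 5 class II chain UMIs each. They held 594 of 686, 418 of 518 and 1598 of 1777 chain UMIs in the treated libraries, against 105 of 231 in control. Without them the chains summed to 68.2, 59.8 and 63.4 CPM, against 67.8 CPM in control, and the list medians were 0.16, -0.07 and 0.03. The barcodes were chosen by these same UMIs, so a fall in the chains was built in. Summed over these 33 barcodes, genes of other lineages stood above their level in the remaining T cells. Cst3 was at 3279.6 against 189 CPM and the monocyte and macrophage gene Lyz2 at 1114 against 80.9. The dendritic cell gene Cd209a was at 165 against 0.389 and the B cell gene Cd79a at 147 against 4.54. Cst3 was found in 27 of the 33 barcodes, Lyz2 in 12, Cd209a in 6 and Cd79a in 6, and the T cell gene Cd3d in 31. Each of Lyz2, Cd209a and Cd79a was thus absent from most of them. The T cell gene Trac was at 633 against 1169.6 CPM, and their median depth was 5918, 6239 and 6672 UMIs in the treated libraries, against 2437 in control, where all T cells had medians of 2196, 1982 and 2325 against 1949. Under a stricter gate, with 1 more T cell marker and no more than 1 of any other lineage, the class II medians were 0.11, -0.05 and 0.01. Both ways, 0, 0 and 1 of 8 class II genes passed 1.5-fold.

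Beyond the 35, a list of 63 further pathway genes was followed, of which 60 symbols were found. In T cells 1, 3 and 5 of the 44 measured were higher and 0, 1 and 1 lower under anti-PD-1, under YKL-5-124 and under the combination, where 2.41%, 5.16% and 5.9% of all genes were higher, so the first 2 counts lie near the background. They include Ezh2, a repressive histone methyltransferase, at 45.5, 62.4 and 69.2 against 37.3 CPM, Socs1, an inhibitor of cytokine signalling, at 54.2, 43.7 and 54.6 against 18.6 CPM, the NF-kappaB subunit gene Nfkb1 at 63.6, 75.2 and 121 against 66.03 CPM, and, in the combination, the endosomal protease Lgmn at 12.3, 34.4 and 56.6 against 17.6 CPM and Cd83, which keeps class II at the surface, at 30.4, 32.6 and 51.9 against 20.2 CPM. The class I chains in T cells stood at 1889, 1794 and 1856 against 1819 CPM for H2-K1 and 4624, 4450.4 and 4668 against 4649 CPM for B2m, and Nlrc5 at 25.3, 16.3 and 15.3 against 16.5 CPM.

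In B cells neither route moved past 1.5-fold. Class I was past it for 0 of 22 genes and class II for 0 of 11 with anti-PD-1 (4.08% of all genes measured higher and 2.79% lower), YKL-5-124 (3.8% of all genes measured higher and 1.5% lower) and the combination (4.35% of all genes measured higher and 2.67% lower). The class II medians were 0.05, 0.01 and 0.07, and the class I medians 0.03, -0.04 and 0.04. H2-Aa measured 7677, 7522 and 7656 CPM in the anti-PD-1, YKL-5-124 and combination libraries, against 7301 CPM in control, Cd74 41612, 42419 and 42656 against 40622 CPM and Ciita 113, 96.4 and 90.6 against 100.1 CPM. B cell levels of the main chains were thus close to control under all 3 treatments. Of 44 wider pathway genes, 0, 0 and 1 were higher and 1, 1 and 2 lower, near the shares of all genes given for B cells. Ifnar1, a chain of the type I interferon receptor, stood at 104, 113 and 78.8 against 141 CPM and the protease Ctsd at 57.2, 45.3 and 24.8 against 63.2 CPM, each past 1.5-fold in the combination.

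In NK cells class I was past 1.5-fold for 0 of 22 genes with anti-PD-1 (7.17% of all genes measured higher and 5.39% lower), 1 of 22 with YKL-5-124 (7.42% of all genes measured higher and 5.52% lower) and 0 of 22 with the combination (6.95% of all genes measured higher and 4.46% lower). The gene was Tap1, at 82.8, 111 and 96.3 CPM in the anti-PD-1, YKL-5-124 and combination libraries, against 66.5 CPM in control, a ratio of 1.67 (1.08 to 2.62) from 54 UMIs with YKL-5-124 and 37 in control. H2-K1 measured 2392, 2294 and 2296 against 2367 CPM and Psmb8 593, 777 and 706 against 645 CPM. Of 6 class II genes measured, 0 were past 1.5-fold in any of the 3. Ifng, the cytokine that raises both routes, was 134, 142 and 85.4 against 167 CPM in NK cells, past 1.5-fold lower in the combination, and 19.5, 25.6 and 18.98 against 28.2 CPM in T cells. Irf1, a transcription factor of the interferon response that acts on class I promoters, was 79.1, 63.9 and 56.9 against 128 CPM in NK cells, past 1.5-fold lower in all 3 treated libraries. Of 39 wider pathway genes, 3, 3 and 3 were higher and 5, 5 and 2 lower, beside the shares of all genes given for NK cells. They include Nfkb1 at 88.3, 63.9 and 86.8 against 46.7 CPM, its partner Rela at 22.1, 43.3 and 33.9 against 55.7 CPM, the proteasome activator Psme3 at 64.4, 72.1 and 92.2 against 128 CPM, and Sec61a1, a subunit of the protein channel of the endoplasmic reticulum, at 75.4, 59.8 and 70.5 against 96.99 CPM.

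In monocytes and macrophages class II transcripts were lower than in control with YKL-5-124 and the combination. H2-Aa measured 2810.0, 2071 and 1612 CPM in the anti-PD-1, YKL-5-124 and combination libraries, against 3871 CPM in control, with ratios of 0.726 (0.680 to 0.775), 0.535 (0.507 to 0.565) and 0.416 (0.394 to 0.440). H2-Ab1 was 3462, 2716 and 2234 against 5063 CPM, H2-Eb1 1289, 1142 and 863 against 2019 CPM, Cd74 13658, 10573 and 8994 against 18904 CPM, H2-DMb1 403, 318 and 269 against 466 CPM and Ciita 17.5, 6.898 and 7.94 against 18.3 CPM, the last on 10 to 15 UMIs per library. Every treated library lay below control for the 3 chains and Cd74. Of 9 class II genes measured, 1 was lower with anti-PD-1 (H2-Eb1, with 8.36% of all genes measured higher and 5.78% lower), 5 with YKL-5-124 (5.35% of all genes measured higher and 4.52% lower) and 6 with the combination (5.44% of all genes measured higher and 3.66% lower), and 0 were higher. The medians were -0.20, -0.75 and -0.77, beside 0.03, 0.03 and 0.04 over all genes. Ctss, at 3942, 3779 and 4043 against 3788 CPM, and H2-DMa, at 552, 429 and 393 against 484 CPM, did not pass 1.5-fold.

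Class I in the same cells was near control for most genes. Of 24 measured, 1 was higher and 1 lower with anti-PD-1, 3 were lower with YKL-5-124 and 1 was lower with the combination. Over all genes 8.36% were higher and 5.78% lower with anti-PD-1, and 4.52% and 3.66% lower with YKL-5-124 and the combination, so a count of 1 of 24 lies near or under the background. The class I medians were 0.02, -0.19 and -0.04. H2-M2 was the gene lower in all 3, at 15.8, 12.1 and 11.1 CPM in the anti-PD-1, YKL-5-124 and combination libraries, against 114 CPM in control, with ratios of 0.139 (0.0606 to 0.281), 0.106 (0.0615 to 0.177) and 0.0978 (0.0566 to 0.163). H2-Q6 was 40.3, 10.3 and 21.2 against 20.2 CPM, higher with anti-PD-1, and H2-Q7 114, 49.4 and 61.9 against 93.5 CPM and H2-Q4 66.6, 36.2 and 55.6 against 64.2 CPM, both lower with YKL-5-124. H2-K1 was 1310.4, 1059 and 1206 against 1311 CPM and B2m 6129.8, 5119 and 5938 against 6335 CPM. Of 45 wider pathway genes, 5, 5 and 4 were higher and 2, 4 and 4 lower. Cd83 was 287, 247 and 273 against 460.3 CPM, the costimulatory ligand Cd86 107, 74.2 and 104 against 154 CPM, Irf1 75.3, 49.4 and 52.4 against 91.7 CPM and Ifnar1 63.1, 66.7 and 63.5 against 112 CPM, each past 1.5-fold lower in at least 1 treated library. The endosomal protease Ctsl was 94.6, 185 and 119.7 against 89.9 CPM, Lgmn 732, 497 and 380.2 against 605 CPM, the disulfide isomerase P4hb 103, 68.98 and 66.2 against 60.5 CPM and Sec61a1 49.1, 51.2 and 51.9 against 31.2 CPM.

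The make-up of this lineage also differed between libraries. Macrophages made up 11.05%, 4.79% and 3.93% in the anti-PD-1, YKL-5-124 and combination libraries, against 15.9% in control. Of the class II chain UMIs they held 14.9%, 21.4% and 15.96% in the anti-PD-1, YKL-5-124 and combination libraries, against 38.5% in control. Cells of the lineage given to no subset held 51.3%, 47.5% and 39.2%, against 34.9% in control, the largest part in each treated library. Classical monocytes made up 20.4%, 31.7% and 24.95% in the anti-PD-1, YKL-5-124 and combination libraries, against 15.9% in control, and nonclassical monocytes 43.1%, 36.5% and 46.95% in the anti-PD-1, YKL-5-124 and combination libraries, against 45.9% in control. The 13 macrophage markers summed to 8448, 4654 and 2881 against 8055 CPM in the whole lineage, with Marco, Ear1, Fabp1 and Krt79 at 0 in the combination, Ear1 and Krt79 with YKL-5-124 and Krt79 with anti-PD-1, and the 16 dendritic cell markers to 399, 312 and 326 against 339 CPM. H2-Aa, H2-Ab1 and H2-Eb1 together measured 10130.1 CPM, 24416 CPM and 19094 CPM in the anti-PD-1, YKL-5-124 and combination libraries, against 27068 CPM in control in macrophages. They measured 6708 CPM, 1107 CPM and 2915 CPM in the anti-PD-1, YKL-5-124 and combination libraries, against 4447 CPM in control in classical monocytes, and 12365 CPM, 9296 CPM and 6109 CPM in the anti-PD-1, YKL-5-124 and combination libraries, against 13664 CPM in control in cells of the lineage given to no subset. Macrophages were the richest subset in all libraries but anti-PD-1, and held fewer than 30 cells in each. The part of these shifts in the lineage-wide ratios was not tested, and the subsets are given apart.

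**Figure D5:**
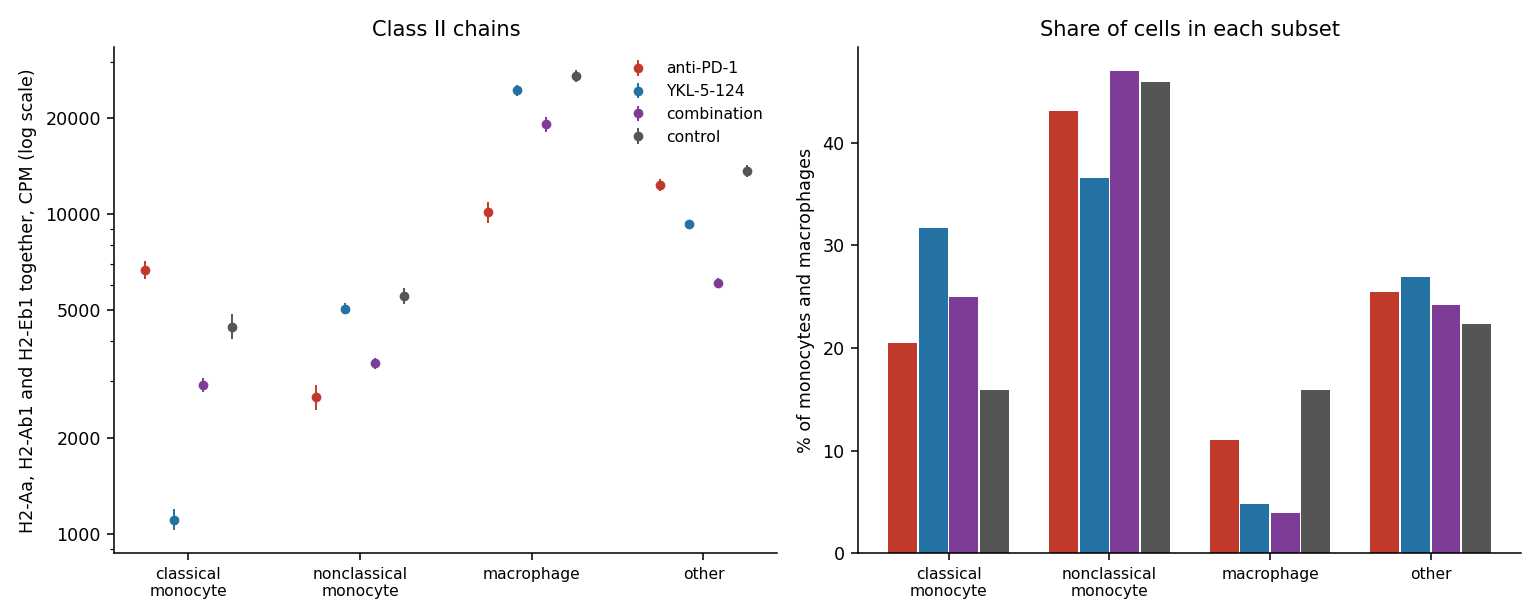
Left, CPM (log axis) of H2-Aa, H2-Ab1 and H2-Eb1 together in subsets of monocytes and macrophages, 1 point per library with its 95% counting interval. Right, share of each subset among all monocytes and macrophages of the library; class II is highest in macrophages in YKL-5-124, combination and control, and macrophages are 11.05%, 4.79% and 3.93% of the treated libraries against 15.9% of control.

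Within nonclassical monocytes, the patrolling subset and the one with at least 50 cells in every library, class II was lower with anti-PD-1 and the combination but not with YKL-5-124. H2-Aa measured 985, 1938 and 1279.5 CPM in the anti-PD-1, YKL-5-124 and combination libraries, against 2063 CPM in control, with ratios of 0.477 (0.399 to 0.570), 0.939 (0.836 to 1.06) and 0.620 (0.551 to 0.698). H2-Ab1 was 1349.7, 2288 and 1519 against 2421 CPM, H2-Eb1 337, 842 and 621 against 1072 CPM, H2-DMb1 131, 152 and 131 against 221 CPM and Cd74 7238, 11219 and 8388 against 12983 CPM. The YKL-5-124 library thus sat beside control in this subset, unlike in the whole lineage. Of 7 class II genes measured, 5 were lower with anti-PD-1 (with 17.2% of all genes measured higher and 14.9% lower), 0 with YKL-5-124 (12.7% of all genes measured higher and 10.7% lower) and 5 with the combination (12% of all genes measured higher and 9.76% lower), with medians of -0.84, -0.09 and -0.67 beside 0.06, 0.01 and 0.01. With each cell weighted equally the combination median was -0.39 and 0 of 7 were past 1.5-fold, against -0.89 and 4 of 7 with anti-PD-1.

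Most nonclassical monocytes held no class II chain UMI after thinning to 1000 UMIs, and at least 3 were held by 9 of 75 cells (5.64% to 21.6%), 32 of 157 cells (14.4% to 27.5%) and 41 of 230 cells (13.1% to 23.4%) in the anti-PD-1, YKL-5-124 and combination libraries, against 15 of 73 cells (11.98% to 31.6%) in control, intervals that overlap. The 16 dendritic cell markers summed to 147, 160.0 and 225 against 211 CPM and the 11 B cell markers to 38.1, 34.4 and 33.2 against 35.2 CPM here, with Cd209a at 0 in all but YKL-5-124. The 13 macrophage markers summed to 4615, 1819 and 2158 against 4378 CPM, with Pf4, Marco, Ear1, Fabp1, Atp6v0d2 and Krt79 at 0 in all 4 libraries. Their part was not tested. Class I had 2 of 23 genes higher and 1 lower with anti-PD-1 (H2-Q6 and H2-T22 higher, Erap1 lower), 1 lower with YKL-5-124 (H2-M3) and 1 lower with the combination (H2-Q7, at 223, 115 and 107 against 166 CPM). Of 45 wider pathway genes, 6, 4 and 8 were higher and 3, 4 and 5 lower, beside the shares of all genes given for this subset. Irf1 was 70.8, 76.95 and 70.5 against 141 CPM, with ratios of 0.502 (0.239 to 1.002), 0.546 (0.326 to 0.924) and 0.501 (0.310 to 0.825). Ifnar1 was 38.1, 70.9 and 80.2 against 126 CPM. Of the Irf1 intervals, those of YKL-5-124 and the combination lie below 1. Further genes past 1.5-fold in at least 1 treated library were Sec61a1 at 65.3, 40.5 and 42.9 against 30.2 CPM, P4hb at 70.8, 38.5 and 40.1 against 40.3 CPM, Ctsl at 32.7, 54.7 and 69.2 against 35.2 CPM and Nfyb, a subunit of the factor that binds the Y box, at 43.5, 34.4 and 23.5 against 50.3 CPM.

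Classical monocytes, the inflammatory subset that enters tissue from blood, numbered 37 and 27 in the anti-PD-1 and control libraries, too few to compare, and 127 and 139 in the combination and YKL-5-124. In the combination, 5 of 8 class II genes and 2 of 21 class I genes were higher than with YKL-5-124 alone and 0 were lower (with 7.05% of all genes measured higher and 5.71% lower), with a class II median of 0.68 beside 0.00 over all genes. H2-Aa was 1020.2 against 397 CPM, H2-Ab1 1329 against 599 CPM, H2-Eb1 566 against 112 CPM and Cd74 4424 against 2731 CPM in the combination and YKL-5-124 libraries, and H2-DMb2 rested on 7 and 3 UMIs. Of the class I genes, H2-T23 was 157 against 98.8 CPM and H2-Q4 42.2 against 6.37 CPM. Irf9, which acts in type I interferon signalling, was 74.8 against 44.6 CPM. The Fc receptor chain Fcgrt was 93.97 against 52.6 CPM and Nfkb1 69.04 against 39.8 CPM, while Ctsd was 167 against 293 CPM and Lgmn 165 against 271 CPM, in all 7 higher and 4 lower of 43. The dendritic cell marker Cd209a moved with class II, with 26 UMIs in the combination and 0 with YKL-5-124, and the 16 dendritic cell markers summed to 428 CPM in the combination and 349 CPM with YKL-5-124. A class II chain UMI was found in 14.6% (8.91 to 22.1) of cells in the combination and 15.9% (10.3 to 23.1) with YKL-5-124 after thinning to 1000 UMIs, and in 39 of 127 and 48 of 139 cells before it. The share of cells was thus not higher in the combination, and the part of Cd209a-bearing cells in the class II ratio was not tested.

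Neutrophils were counted at low depth, with 73306 UMIs in the anti-PD-1 library and 84296 in control, so many ratios pass 1.5-fold on a handful of UMIs. Of 20 class I genes, 7 were higher and 4 lower with anti-PD-1 (28.2% of all genes measured higher and 23.3% lower), 4 and 6 with YKL-5-124 (21.1% of all genes measured higher and 24.9% lower) and 8 and 5 with the combination (25.1% of all genes measured higher and 18.7% lower). Of 6 class II genes, 3, 0 and 2 were higher and 0, 3 and 2 lower in the same order. H2-K1 measured 709, 358 and 482 CPM in the anti-PD-1, YKL-5-124 and combination libraries, against 652 CPM in control, a ratio of 0.549 (0.414 to 0.740) with YKL-5-124, and Tapbp 191, 112 and 171 against 297 CPM. H2-D1 was 5948, 4348 and 5335 against 5908 CPM, and B2m 2033, 1727 and 2201 against 2207 CPM. With YKL-5-124, the library with the most neutrophils, the class I genes lower were H2-K1, H2-Q4, H2-Q6, H2-Q7, H2-T22 and Tapbp and those higher Psme1, Pdia3, Calr and Canx, and H2-Aa, H2-Ab1 and H2-Eb1 were lower. Calr stood at 54.6, 95.6 and 123 against 35.6 CPM and Pdia3 at 27.3, 106 and 118 against 59.3 CPM, on 3 and 5 UMIs in control. With anti-PD-1, H2-T23, Tap1, Psmb9, Psmb10, Psme1, Nlrc5, Canx, H2-Ab1, H2-DMb1 and Cd74 were higher and H2-Q4, H2-T22, Tapbp and Pdia3 lower, with at most 53 UMIs for any of them. With the combination, Tap2, Psmb9, Psmb10, Psme1, Nlrc5, Pdia3, Calr, Canx, H2-DMb1 and Ctss were higher and H2-Q4, H2-Q6, H2-Q7, Tap1, Tapbp, H2-Aa and H2-Eb1 lower.

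In the YKL-5-124 library 195 of 642 neutrophils carried at least 2 of the granule genes Camp, Ngp and Ltf, which mark immature neutrophils, beside 7 of 161 in the combination and 1 of 71 with anti-PD-1, against 0 of 84 in control, a count with an upper limit of 3.57%. Their H2-D1 was 3207 CPM, and that of the remaining neutrophils 5364 CPM, beside 5908 CPM in control. H2-K1 was 289.5 and 419 CPM, beside 652 CPM, and Calr 102 and 90.3 CPM, on 61 UMIs each. The granule-rich cells thus had less of both heavy chains than the rest of their library, while their Calr levels did not differ beyond counting error. Endothelial cells could be compared for the combination and control, with 61 and 70 cells: 0 of 23 class I genes were higher and 6 lower, and 1 of 9 class II genes higher and 1 lower (26.7% of all genes measured higher and 19.2% lower), with H2-Q4, H2-Q6, H2-Q7, Tapbpl, Nlrc5, Calr and Ctss lower and H2-Oa higher. H2-Q6 was at 97.4 against 241 CPM, Calr at 224 against 519 CPM and Ctss, on 2 and 39 UMIs, at 19.5 against 293 CPM. The myeloid gene Lyz2 moved with Ctss, at 127 against 978 CPM on 13 and 130 UMIs, and its part was not tested. With so few UMIs and backgrounds this high, nothing is read from the counts of neutrophil and endothelial genes past 1.5-fold.

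The combination was also set against each single agent, which asks what the second agent added. In tumour cells, copies included, 0 of 21 class I and 0 of 5 class II genes passed 1.5-fold over anti-PD-1 (0.224% of all genes measured higher and 0.179% lower) and over YKL-5-124 (0.302% of all genes measured higher and 0.056% lower). The class I medians were 0.04 and 0.08, and H2-K1 was 1.303 (1.23 to 1.37) times the anti-PD-1 and 1.25 (1.19 to 1.32) times the YKL-5-124 level. In B cells 0 of 22 class I and 0 of 11 class II genes passed over anti-PD-1 (4.47% of all genes measured higher and 3.47% lower) and over YKL-5-124 (2.14% of all genes measured higher and 2.92% lower). In NK cells H2-Q4 was lower over anti-PD-1 (1 of 22 class I, 5.85% of all genes measured higher and 5.61% lower), and H2-M3 lower and H2-Eb1, on 18 and 6 UMIs, higher over YKL-5-124 (5.42% of all genes measured higher and 4.84% lower). In T cells H2-Q4, at 157 against 265 CPM, was lower and H2-Eb1 higher over anti-PD-1 (4.05% of all genes measured higher and 1.15% lower), and H2-Aa, H2-Ab1, H2-Eb1 and H2-DMa were higher over YKL-5-124 (1.17% of all genes measured higher and 0.65% lower), in the few barcodes described above. Of these, H2-Q4 shares part of its 3' end sequence with another gene, as given above.

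In monocytes and macrophages the combination had 4 of 9 class II genes lower than anti-PD-1, H2-Aa, H2-Ab1, Cd74 and Ciita, and 2 of 24 class I genes, H2-Q6 and H2-Q7 (3.52% of all genes measured higher and 4.26% lower). Over YKL-5-124, H2-Q6 was higher and H2-DMb2 lower (1.81% of all genes measured higher and 1.17% lower). In nonclassical monocytes H2-Eb1, Nlrc5 and Erap1 were higher and H2-Q4, H2-Q6, H2-Q7 and H2-T22 lower than with anti-PD-1 (11.4% of all genes measured higher and 11.9% lower), Nlrc5 on 11 and 1 UMIs. Over YKL-5-124, H2-Q6 was higher, and H2-Aa, at 0.660 (0.603 to 0.723) times its level, and H2-Ab1, at 0.664 (0.610 to 0.722) times, were lower (6.26% of all genes measured higher and 4.75% lower). In neutrophils 3 of 20 class I genes were higher and 4 lower, and 1 of 6 class II genes higher and 5 lower, than with anti-PD-1 (25.5% of all genes measured higher and 21.6% lower), and 4 and 1 of the class I and 1 and 0 of the class II genes than with YKL-5-124 (19.1% of all genes measured higher and 9.62% lower). The neutrophil class I genes were H2-T22, Pdia3 and Calr, higher, and H2-Q6, H2-Q7, Tap1 and Nlrc5, lower, in the first, and H2-T22, Psmb9, Nlrc5 and Canx, higher, and Tap1, lower, in the second, and the class II genes H2-Aa, H2-Ab1, H2-Eb1, H2-DMb1 and Cd74, lower, and Ctss, higher in both. These comparisons share the combination library, and the comparisons above share the control library, so neither set is independent.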

How the data were processed

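The deposited values are UMI counts per gene and barcode in 4 raw droplet matrices of 737280 barcodes each, 1 per library. The tools bcl2fastq and Cell Ranger are named per the submitters' processing notes, version 3.0.0 is written in the file headers, and those notes list hg19 as the build while the deposited gene IDs are mouse, so no coordinate was taken from the deposited files. The members and lists were chosen with earlier results of these data known.

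Barcodes were kept from 500 UMIs and 300 genes upward, with no more than 10% of UMIs mitochondrial. A barcode was gated to the lineage with the most distinct markers detected, at least 2, where the runner-up had no more than 50% of that number. The rule was chosen after the data were seen, with the marker list as written before, and 1513 barcodes stayed ungated. UMIs were summed per lineage and library and scaled to CPM. Levels carry exact Poisson intervals and ratios exact conditional binomial intervals, both at 95%, and shares exact Clopper-Pearson intervals. UMIs count molecules, but none of these intervals covers variation between animals, and a count of 0 is given a limit of 3 counts.

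A gene counts as measured in a lineage at 10 CPM or more in the mean of all 4 libraries, and for tumour over T cells in the mean of both lineages of a library, and libraries were compared with at least 50 cells in both. Log2 ratios have 10 CPM added to both levels. No treatment was tested, because a group is 1 library. Genes were named when past 1.5-fold in a compared lineage or when they are H2-K1, H2-D1, B2m, Tap1, Psmb8, Psmb9, Nlrc5, H2-Aa, H2-Ab1, H2-Eb1, Cd74 or Ciita, and wider pathway genes when past it with at least 50 CPM in either library, up to 6 per comparison; 1 of these is not reported here. Shares and quotients of partner genes, other subsets and genes set beside these were chosen after their values were seen. Doublets were treated by the gate, and, as an alternative, by removing the barcodes with the highest Scrublet scores, 60, 138 and 131 in the anti-PD-1, YKL-5-124 and combination libraries and 97 in control, because Scrublet's own threshold marked 3, 5, 2 and 5. The counting code was tested on simulated data. The work was done in Python 3.11.15 with SciPy 1.17.1, NumPy 2.4.6, Scanpy 1.11.5, pandas 2.3.3 and Matplotlib 3.10.9.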

Additional observations from a re-analysis of the deposited data

How the results depend on the processing

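Each of 35 list medians and 12 shares was recomputed under up to 13 other settings, and of the resulting values 374 lay within 0.5 times the width of the counting interval, 36 moved further and 2 reversed. No paired analysis was possible because each group is 1 library. The T cell class II medians (1.23, 0.86 and 1.26 under anti-PD-1, under YKL-5-124 and under the combination) were 0.56, 0.20 and 0.84 with cells weighted equally, 0.11, -0.054 and 0.015 under the stricter gate, 0.51, 0.32 and 0.87 with genes from 1 CPM, and 0.16, -0.066 and 0.025 without the class II-rich barcodes, a setting chosen after seeing the data. A pseudocount of 1 CPM gave 1.79 with anti-PD-1 and 1.81 with the combination, which was 1.52 with free RNA subtracted. With cells weighted equally the nonclassical class II median was 0.10 with YKL-5-124 and -0.39 with the combination. The first is opposite in sign to its main value but is counted as moved and not as reversed. The reversed values arose under the stricter gate and without the class II-rich barcodes. The tumour over T class I medians were -2.08, -1.97, -1.80 and -2.07 (anti-PD-1, YKL-5-124, combination, control) with median-ratio scaling, and -2.01 and -1.91 in the first 2 with 1 CPM added. Thinned to 2000 UMIs, 95.5%, 97.1%, 98.7% and 94.0% of tumour cells held a class I chain UMI, 12.02%, 13.3%, 14.6% and 13.9% of T cells a class II chain UMI, and 10.1% and 10.4% of tumour cells with anti-PD-1 and the combination a class II chain UMI. With shared barcodes kept in the deepest library, also chosen after seeing the data, the class I share with YKL-5-124 was 83.0% and the tumour class II shares 3.55%, 4.79%, 5.45% and 5.15%. Except where a setting's own construction shows it, the cause was not tested. The class II medians of monocytes and macrophages and the class I medians of T, NK and B cells moved under none of these settings. With 1 library per group, differences between animals, capture and treatment cannot be told apart, and depth limits neutrophils, endothelial cells and both monocyte subsets most.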

Other observations

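Lineages too small for a comparison between libraries also differed in these genes, with counts summed over the 4 libraries. The 70 type 2 innate lymphoid cells held 2448 CPM of H2-K1, beside 2294 to 2392 CPM in NK cells. The 31 plasmacytoid dendritic cells, a source of type I interferon, held 495 CPM of Tapbp and 2650.1 CPM of H2-Aa. The 40 plasma cells, which secrete antibody, held 843 CPM of Calr, and the 56 stromal cells 1079 CPM of Pdia3 and 735 CPM of Calr. The 51 airway and alveolar epithelial cells, 7, 10 and 29 in the anti-PD-1, YKL-5-124 and combination libraries and 5 in control, differed between libraries. Cd74 was at 112, 213 and 1839 CPM in the treated libraries, against 4994 CPM in control, on 3, 10 and 213 UMIs against 83. H2-K1 was at 261, 64.05 and 259 against 542 CPM, on 3 to 30 UMIs. These cells come from unequal numbers per library and are given as values only.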
